A study of Sus scrofa with 9 samples.

Results

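Pig left ventricle was compared between postnatal day 15 and postnatal day 7, the ages that bound the second week after birth. RNA sequencing had been run on myocardium of wild type, untreated pigs, with 3 libraries on day 7 (replicates 2, 5 and 6) and 3 on day 15 (replicates 1, 2 and 6). These are 6 of the 9 libraries of the series. The other 3, from day 0 (replicates 4, 5 and 6), entered the estimate of spread and the comparison of the weeks. The values are TPM, a length-normalised abundance of each transcript expressed as a share of its library. All genes with at least 1 TPM in at least 3 of the 9 libraries were used, which gave 12268 genes of the 22629 in the deposited table. Fold changes are differences of mean log2(TPM + 1), day 15 minus day 7, and a gene is said to rise or fall only where its limma p, adjusted by the Benjamini-Hochberg method over the 12268 genes, was under 0.05.

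In the weeks after birth, heart muscle cells of mammals leave the cell cycle and go on growing mainly by enlargement. They come to draw more of their energy from fatty acids than from glucose and lactate, and exchange fetal for adult forms of contractile proteins. Endothelial cells and fibroblasts around them go on dividing while capillaries and connective tissue are laid down. The tissue was whole ventricle, so each value mixes muscle cells, vessel cells, fibroblasts and blood cells.

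The depth behind TPM values is unknown. A single abundant transcript without a gene symbol, ENSSSCG00000032277, took 30.6% to 46.0% of the TPM of the 6 libraries, with the highest share in day 15 replicate 1. That library also listed the fewest genes at 1 TPM or more (11290, against 11690 to 12164 in the other 5). TPM are shares, so a larger share of this transcript leaves less for all others. The median fold change of all 12268 genes was -0.15, and 9020 genes (73.5%) lay below 0. Values are therefore read against -0.15, and counts are also given after median-of-ratios scaling, which gives each library 1 factor that aligns the typical gene. Pearson correlations across genes, which are not independent replicates, ranged from 0.965 to 0.980 for libraries of the same age and from 0.946 to 0.977 for libraries of different ages. The first principal component of the 6 libraries, with 38.9% of the variance, did not separate the ages. The other leading component, with 30.9%, did. Heart muscle markers were abundant in every library: the 9 tested summed to 49358 to 55807 TPM on day 7 and to 46731 to 57779 TPM on day 15. The labels do not state which animals the libraries came from. Y-linked genes, given further on, were near 0 in 1 library of each of the 2 ages and abundant in the others, so neither age comes from a single animal. The spread behind the p-values is that between libraries, and part of it may be technical.

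Few genes passed the test. Between day 7 and day 15, 21 genes (0.171% of those tested) changed: 5 rose (0.0408%) and 16 fell (0.13%). After scaling 11 genes passed (0.0897%). All 21 differed by at least 2-fold on the log2(TPM + 1) scale, and in all 21 the day 7 and day 15 libraries did not overlap, as deposited or after scaling. Of the 21, 11 had a mean of 5 TPM or more at the age where they were higher, and the others were below that. A further 27 genes, 21 lower and 6 higher on day 15, had an adjusted p between 0.05 and 0.1. The count depended on single libraries. No gene passed limma's threshold without day 7 replicate 2 (148 higher and 837 lower at an unadjusted p under 0.05), without day 7 replicate 6 (108 and 1371) or without day 15 replicate 6 (157 and 873). It was 8 without day 15 replicate 1, 9 without day 15 replicate 2 and 52 without day 7 replicate 5. Leaving out day 0 replicate 4, 5 or 6 gave 5, 50 and 2.

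**Figure D1:**
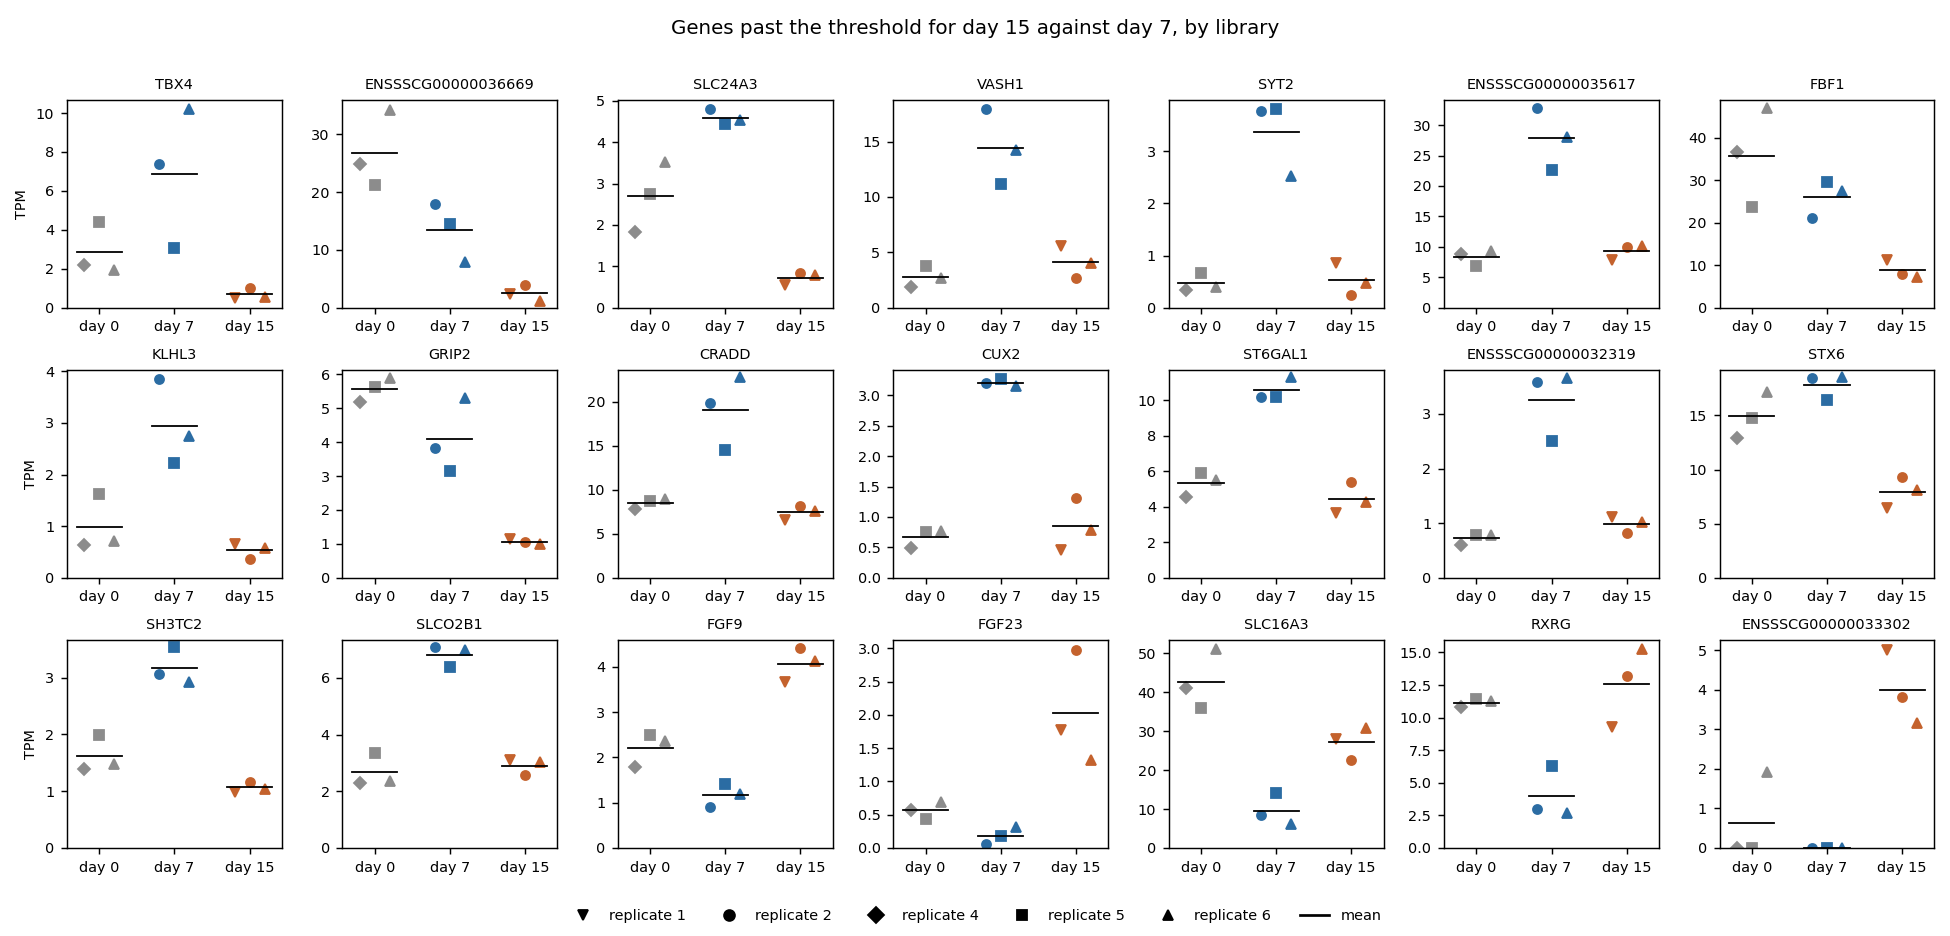
TPM of the 21 genes that changed between day 7 and day 15, on linear axes that start at 0, in the libraries of day 0, day 7 and day 15. Each symbol is a library, its shape gives the replicate number and the bar is the mean of the age. In each panel the 3 day 7 libraries and the 3 day 15 libraries do not overlap.

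Among the 16 genes that fell, SLC24A3, which exchanges sodium for calcium and potassium across membranes, had the smallest p. It was 4.81, 4.44 and 4.55 TPM in day 7 replicates 2, 5 and 6 and 0.544, 0.850 and 0.781 TPM in day 15 replicates 1, 2 and 6. The libraries of each age lay close together, and the means, 4.60 ± 0.19 and 0.725 ± 0.161 TPM (SD, n = 3 each), differed 6.34-fold (log2 fold change -1.70 ± 0.19 (SE), limma adjusted p = 0.0158). SYT2, a calcium sensor of vesicle release, fell from 3.78, 3.81 and 2.52 TPM to 0.865, 0.241 and 0.483 TPM (-1.52, limma adjusted p = 0.0318). On day 0 it had been at 0.347 to 0.656 TPM, so its level was high on day 7 alone among the ages sampled. SYT2 reached 1 TPM in the day 7 libraries alone, and so entered the test only through the age where it is high. SLCO2B1, an uptake carrier of organic anions, was within 6.38 to 7.09 TPM on day 7 and 2.58 to 3.09 TPM on day 15 (-1.002, limma adjusted p = 0.0496). STX6, a membrane fusion protein of the Golgi, was within 16.4 to 18.6 TPM and then 6.48 to 9.31 TPM (-1.08, limma adjusted p = 0.0431). SLCO2B1 and STX6 had narrow ranges on day 7, while SYT2 varied more on day 15. GRIP2, a scaffold that binds membrane receptors, fell by 1.28 on the log2 scale (limma adjusted p = 0.0346). SH3TC2, a protein of recycling endosomes, fell by 1.01 (limma adjusted p = 0.0431). ST6GAL1, which adds sialic acid to glycoproteins in the Golgi, fell by 1.102 (limma adjusted p = 0.0402).

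The regulators that fell included a pair of transcription factors. TBX4, a T-box factor best known from limb and lung development, was 7.36, 3.09 and 10.2 TPM on day 7 and 0.521, 1.00 and 0.532 TPM on day 15. Its means differed 10.1-fold, and day 7 replicate 5 was the lowest of its age (-2.12 ± 0.34 (SE), limma adjusted p = 0.0402). CUX2, a homeobox factor, was 3.19, 3.27 and 3.14 TPM on day 7 and 0.464, 1.31 and 0.787 TPM on day 15 (-1.21, limma adjusted p = 0.0402). Outside day 7, CUX2 reached 1 TPM only in day 15 replicate 2, so its entry to the test rested on day 7. VASH1, vasohibin, an inhibitor of vessel growth made by endothelial cells that also trims tubulin, was 18.0, 11.2 and 14.2 TPM and then 5.61, 2.64 and 4.02 TPM. The gap between the lowest day 7 and the highest day 15 library was wide in VASH1 (-1.62 ± 0.26 (SE), limma adjusted p = 0.0402). Its relative VASH2 was 17.6 to 21.1 TPM on day 7 and 12.1 to 15.6 TPM on day 15, and did not pass (-0.50, limma adjusted p = 0.388). CRADD, an adaptor with a death domain that binds caspase complexes, fell by 1.23 (limma adjusted p = 0.0402). KLHL3, which brings WNK kinases to a ubiquitin ligase, fell by 1.34 (limma adjusted p = 0.0431). Outside day 7, KLHL3 reached 1 TPM only in day 0 replicate 5, so its entry to the test rested on day 7 as well. FBF1, a protein of the centriole appendages that anchor cilia, went from 21.2 to 29.6 TPM on day 7 to 7.27 to 11.2 TPM on day 15 (-1.47, limma adjusted p = 0.0480). The other 3 of the 16 have no symbol in the table. Of these, ENSSSCG00000035617 was 32.8, 22.6 and 28.1 TPM on day 7 and 7.90, 9.89 and 10.1 TPM on day 15 (-1.48, limma adjusted p = 0.0317), and ENSSSCG00000036669 fell by 2.05 (limma adjusted p = 0.0402).

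Among the 5 genes that rose was FGF9, which the outer and inner linings of the embryonic heart secrete onto muscle cells. It was 0.902, 1.41 and 1.18 TPM on day 7 and 3.65, 4.41 and 4.13 TPM on day 15. Its day 15 mean was 3.49-fold the day 7 mean (1.23 ± 0.18 (SE), limma adjusted p = 0.0346). FGF23, a hormone of phosphate balance made mainly in bone, was near 0 on day 7 at 0.0589, 0.182 and 0.316 TPM and reached 1.77, 2.98 and 1.32 TPM on day 15 (1.32, limma adjusted p = 0.0402). It reached 1 TPM in the day 15 libraries alone, and so entered the test only through the age where it is high. Both genes stayed at a few TPM. Of the 17 genes tested from a list of fibroblast growth factors, receptors and pathway targets, which does not hold FGF23, only FGF9 rose and none fell. FGF1, the most abundant of them, was 21.8 to 29.8 TPM on day 7 and 28.0 to 37.6 TPM on day 15, with overlap (0.44, limma adjusted p = 0.388). RXRG, a retinoid X receptor that pairs with other nuclear receptors, was 2.97, 6.25 and 2.70 TPM on day 7 and 9.25, 13.2 and 15.3 TPM on day 15 (1.49 ± 0.26 (SE), limma adjusted p = 0.0496). SLC16A3, a carrier that exports lactate, was 8.42, 14.1 and 6.14 TPM and then 28.0, 22.6 and 30.7 TPM (1.47 ± 0.26 (SE), limma adjusted p = 0.0497). In both RXRG and SLC16A3, day 7 replicate 5 was the highest of its age. ENSSSCG00000033302, which has no symbol, is listed at 0 in the 3 day 7 libraries and at 5.00, 3.82 and 3.16 TPM on day 15 (2.30, limma adjusted p = 0.0402). Outside day 15 it reached 1 TPM only in day 0 replicate 6, so its entry to the test rested on the age where it is high.

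**Figure D2:**
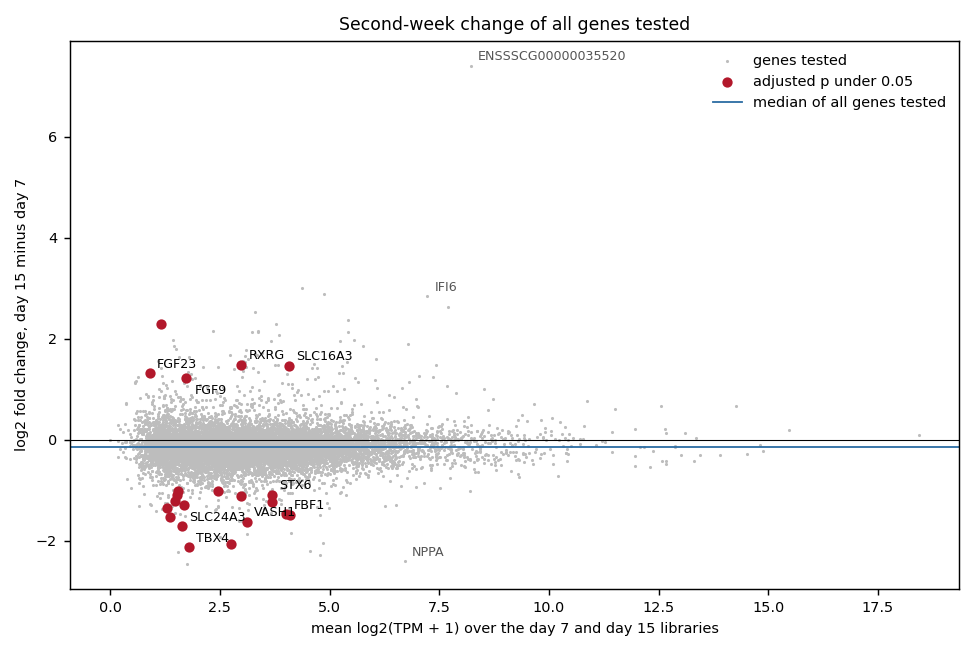
Log2 fold change, day 15 minus day 7, of each of the 12268 genes against its mean log2(TPM + 1) over the 6 libraries. Red points are the 21 genes with an adjusted p under 0.05, and the blue line is the median of all genes, at -0.15. ENSSSCG00000035520 (7.41), IFI6 (2.84) and NPPA (-2.39) lie far from 0 without passing the test.

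Genes of cell division were lower on day 15 as a group, although none passed the gene-wise test. Of the 45 DNA replication genes tested, 39 had all 3 day 15 libraries below all 3 day 7 libraries, against 2199 of all genes (17.9%). After scaling these numbers were 38 of 45 and 1348 of all genes (11%). All 45 fold changes were below 0, with a median of -0.70 (-0.58 after scaling), and 37 had an unadjusted limma p under 0.05, against 11% of all genes. Bulk values cannot tell fewer dividing cells from less of these transcripts per cell. PCNA, the sliding clamp of the replication fork and the most abundant member, was 50.7, 41.1 and 41.3 TPM on day 7 and 18.2, 24.5 and 27.3 TPM on day 15. The gap was larger than the spread at either age (-0.91 ± 0.20 (SE), limma adjusted p = 0.102). MCM3, a subunit of the replicative helicase, was 15.2, 10.95 and 11.4 TPM and then 5.02, 4.23 and 4.68 TPM (-1.25, limma adjusted p = 0.106). POLE, the catalytic subunit of a replicative polymerase, came closest to the threshold, from 2.47 to 3.04 TPM on day 7 to 0.658 to 1.12 TPM on day 15 (-0.98, limma adjusted p = 0.0755). Summed over the list, the level was 572, 501 and 447 TPM on day 7 and 240, 294 and 297 TPM on day 15. Day 0 stood at 198, 372 and 243 TPM, near the day 15 level except in replicate 5.

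Mitosis and cytokinesis genes had the same form. Of 46 mitosis genes, 38 lay wholly lower on day 15 (33 after scaling), with a median of -0.67. They include KNTC1, which reached 1 TPM on day 7 alone, and so entered the test only through the age where it is high. The number of such members was not counted. SMC2, a condensin subunit that compacts chromosomes, was 5.22, 4.50 and 4.93 TPM on day 7 and 1.61, 1.81 and 2.30 TPM on day 15 (-1.02, limma adjusted p = 0.0905). UBE2C, the conjugating enzyme of the anaphase-promoting complex and the most abundant member, was more spread, at 58.5, 51.7 and 33.6 TPM and then 20.2, 24.1 and 30.4 TPM (-0.90, limma adjusted p = 0.423). Its day 7 replicate 6 came within a few TPM of day 15 replicate 6. Of 21 cytokinesis genes, 14 lay wholly lower (12 after scaling), with a median of -0.71, led by ARHGEF2 (-1.03, limma adjusted p = 0.104), an exchange factor for RhoA, and by the midbody kinase CIT (-0.75, limma adjusted p = 0.160). The members that overlapped between the ages there included RHOA, RHOC and the septins, which also serve cells that do not divide. Among 16 histone and chromatin assembly genes, 11 lay wholly lower (11 after scaling) and the median was -0.63. Examples are EZH2, the methyltransferase of Polycomb complexes (-0.99, limma adjusted p = 0.132), the lamin LMNB2 (-0.87, limma adjusted p = 0.106) and the histone chaperone NASP (-0.64, limma adjusted p = 0.160). The histone gene HIST2H2BE, which is not on this list, lay wholly higher on day 15 (1.11, limma adjusted p = 0.141). Erythroid marker genes, whose cells can also divide, overlapped between the ages, at 1217, 859 and 555 TPM summed over 5 genes on day 7 and 436, 541 and 660 TPM on day 15, and their part in the cell division values was not tested.

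The inhibitors of the cell cycle showed no common direction. Of 19 tested, 4 lay wholly lower and 1 wholly higher, against 17.9% and 1.46% of all genes, with a median of -0.11. After scaling 4 lay wholly lower and 2 wholly higher, against 11% and 8.69%. The higher one as deposited was CDKN1A, which encodes the cyclin-dependent kinase inhibitor p21. It was 20.9, 22.9 and 8.99 TPM on day 7 and 42.1, 54.2 and 28.0 TPM on day 15, so the ages were separate but the spread was wide (1.24 ± 0.33 (SE), limma adjusted p = 0.178). The lower ones included RBL1, a retinoblastoma relative (-0.70, limma adjusted p = 0.133), and PKMYT1, a kinase that holds back mitotic entry (-0.75, limma adjusted p = 0.196). PKMYT1 reached 1 TPM on day 7 alone, and so entered the test only through the age where it is high.

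**Figure D3:**
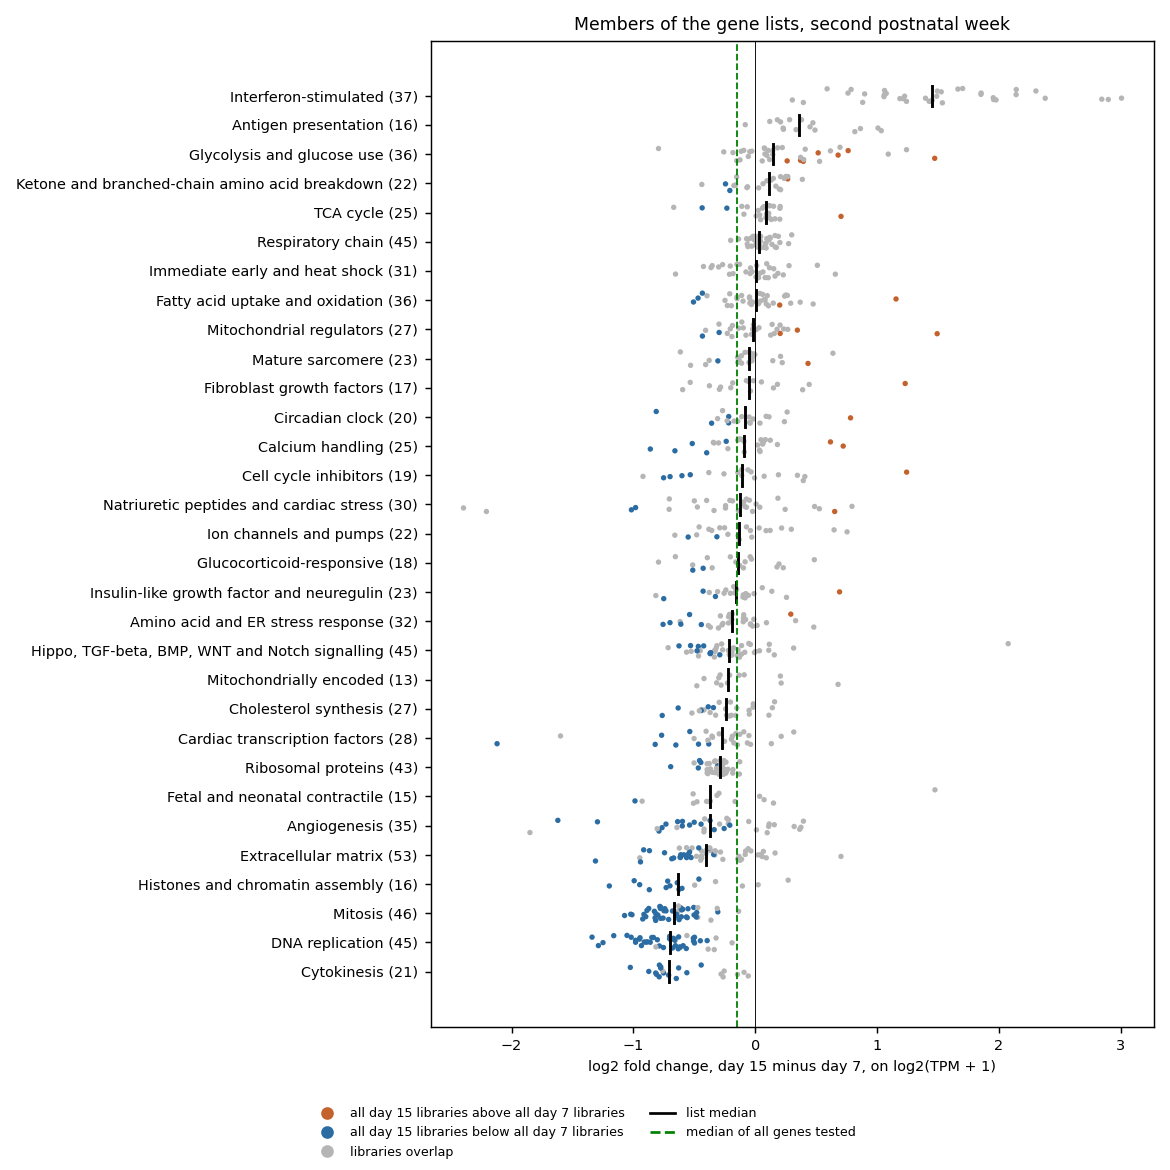
Log2 fold change, day 15 minus day 7, of each member of the gene lists, with the number of members tested in parentheses. Points are genes, coloured by whether the 3 day 15 libraries all lie above (orange) or below (blue) the 3 day 7 libraries in deposited TPM; black ticks are list medians and the dashed line is the median of all genes. The cell division lists have medians near -0.7, and the interferon list reaches furthest to the right with no member free of overlap.

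Vessel and matrix genes held larger shares of wholly lower members than the 17.9% of all genes (11% after scaling), and their counts depended on scaling. Of 35 angiogenesis genes, 1 fell (VASH1) and 15 lay wholly lower (7 after scaling), with a median of -0.37 (-0.20 after scaling). The number below 0 was 26 of 35, a share like that of all genes (73.5%). APLN, the ligand of the apelin receptor, was 243, 92.4 and 130.3 TPM on day 7 and 60.3, 55.6 and 57.4 TPM on day 15. The day 15 libraries were within a few TPM of each other while day 7 replicate 2 stood far above the rest (-1.30 ± 0.28 (SE), limma adjusted p = 0.102). ROBO4, an endothelial guidance receptor, was lower by a smaller step (-0.64, limma adjusted p = 0.198). Of the 13 endothelial markers tested, 7 lay wholly lower and 1 wholly higher as deposited. After scaling 1 lay lower and 1 higher, which is no more than the shares of all genes (11% and 8.69%). PECAM1, an adhesion molecule at endothelial junctions, was 159, 128 and 137 TPM on day 7 and 86.1, 77.4 and 85.0 TPM on day 15 (-0.76, limma adjusted p = 0.110), and its libraries overlapped after scaling. The summed endothelial markers overlapped, at 690, 574 and 550 TPM on day 7 and 584, 600 and 541 TPM on day 15. In deposited TPM that overlap came through FABP4, the most abundant of them, which was higher on day 15. FABP4 was 116, 54.9 and 65.2 TPM on day 7 and 161, 182 and 161 TPM on day 15. The part of endothelial content in the vessel genes was not tested.

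Of 53 extracellular matrix genes, 18 lay wholly lower (10 after scaling) and none wholly higher (1 after scaling). The median was -0.41 (-0.23 after scaling). TIMP4, an inhibitor of matrix proteases, was 3.48, 3.21 and 2.90 TPM on day 7 and 1.13, 1.09 and 1.33 TPM on day 15 (-0.94 ± 0.17 (SE), limma adjusted p = 0.0653). COL15A1, a collagen of basement membranes, was 125, 129.5 and 107 TPM and then 68.3, 29.2 and 55.0 TPM (-1.31, limma adjusted p = 0.10). Both genes were separate between the ages in deposited and in scaled values. HSPG2, the basement membrane proteoglycan perlecan, lay wholly lower in deposited TPM but overlapped after scaling (-0.92, limma adjusted p = 0.110). The same held for the fibrillar collagen COL3A1 (-0.61, limma adjusted p = 0.316). SPARC, a collagen-binding protein and the most abundant member, overlapped throughout (-0.48, limma adjusted p = 0.390). Fibroblast markers had a median of -0.40, with 2 of 13 wholly lower (0 after scaling), no more than the 17.9% (11%) of all genes. Their sum was 1967, 2718 and 2019 TPM on day 7 and 1788, 1531 and 1653 TPM on day 15. Pericyte and smooth muscle markers had a median of -0.38, with 5 of 13 wholly lower (1 after scaling, MYH11, the heavy chain of smooth muscle myosin). MYH11 was 13.4, 16.0 and 11.04 TPM on day 7 and 7.40, 3.89 and 8.25 TPM on day 15 (-0.99, limma adjusted p = 0.186).

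Genes of glucose use held a larger share of wholly higher members than all genes did, as deposited and after scaling. For fatty acid use and the citrate cycle, given further on, only 2 and 1 genes lay wholly higher as deposited, and 3 and 2 wholly lower. Of 36 glucose use genes tested, SLC16A3 rose and none fell, and 7 lay wholly higher, against 1.46% of all genes (11 after scaling, against 8.69%). The list median was 0.14 (0.32 after scaling). GAPDH, the dehydrogenase at the middle of glycolysis, was 4856, 5894 and 3777 TPM on day 7 and 7995, 6723 and 8273 TPM on day 15 (0.68 ± 0.19 (SE), limma adjusted p = 0.197). The aldolase ALDOA was 1525, 1848 and 1058 TPM and then 2493, 2124 and 2751 TPM (0.76, limma adjusted p = 0.201). In both, day 7 replicate 6 was the lowest library and the ages did not overlap. PDK4, the kinase that shuts pyruvate dehydrogenase and so turns muscle from glucose to fat, had overlapping libraries. It was 35.6, 43.2 and 54.7 TPM on day 7 and 8.98, 53.6 and 30.7 TPM on day 15 (-0.79, limma adjusted p = 0.504).

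Genes of fatty acid use and of the respiratory chain had medians near 0 as deposited, above the -0.15 of all genes. Of 36 fatty acid genes, 2 lay wholly higher and 3 wholly lower, with a median of 0.00 (after scaling 11 and 0, against 8.69% and 11% of all genes, with a median of 0.18). FABP4, a fatty acid binding protein of capillary endothelium and fat cells, was 116, 54.9 and 65.2 TPM on day 7 and 161, 182 and 161 TPM on day 15 (1.16 ± 0.25 (SE), limma adjusted p = 0.102). FABP5, its relative, was lower by 0.51 on the log2 scale with overlap after scaling (limma adjusted p = 0.279). CPT1A, the liver form of the enzyme that admits fatty acids to mitochondria, was 17.9 to 26.8 TPM and then 14.5 to 17.1 TPM (-0.43, limma adjusted p = 0.411). None of 45 nuclear genes of the respiratory chain was free of overlap (7 wholly higher after scaling), and the median was 0.03 (0.21 after scaling). In the citrate cycle 1 of 25 lay wholly higher and 2 wholly lower (after scaling 11 and 0). BNIP3, a mitochondrial protein that directs mitophagy, was 70.0, 133 and 62.9 TPM and then 196, 179.8 and 234 TPM (1.26 ± 0.25 (SE), limma adjusted p = 0.0883). ACSS1, which activates acetate in mitochondria, was 21.9, 45.6 and 10.9 TPM and then 52.0, 71.4 and 51.3 TPM (1.33, limma adjusted p = 0.206). In both BNIP3 and ACSS1, day 7 replicate 5 was the day 7 library nearest to day 15.

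Few contractile genes were free of overlap. Of 23 mature sarcomere genes, 1 lay wholly higher and 1 wholly lower, against 1.46% and 17.9% of all genes, and the median was -0.05. After scaling these were 2 and 0, against 8.69% and 11%, and the median was 0.12. TCAP, the titin cap of the Z-disc, was 1042, 868 and 854 TPM on day 7 and 1304, 1346 and 1084 TPM on day 15 (0.43, limma adjusted p = 0.302). MYL3, the ventricular essential light chain, was 19373, 15973 and 15819 TPM and then 12999, 14273 and 13941 TPM (-0.31, limma adjusted p = 0.425), with overlap after scaling. The heavy chain MYH7 stayed within 6605 to 9152 TPM in all 6 libraries. Of 15 fetal and neonatal contractile genes, 11 lay below 0, with a median of -0.37 (-0.19 after scaling), and 1 lay wholly lower (1 after scaling). The skeletal actin ACTA1, the most abundant of them, was 8377, 4852 and 2585 TPM on day 7. It was 5211, 2866 and 2450 TPM on day 15, with overlap (-0.51, limma adjusted p = 0.690). The slow skeletal troponin I gene TNNI1 overlapped as well (-0.40, limma adjusted p = 0.451). The cardiac actin ACTC1, which is not on that list, was 6255, 8088 and 4494 TPM on day 7 and 2952, 4609 and 5540 TPM on day 15 (-0.53, limma adjusted p = 0.416). TNNT1, the slow skeletal troponin T gene, was 136, 284 and 27.7 TPM and then 296, 407 and 198 TPM, so day 7 replicate 5 lay inside the day 15 range (1.47, limma adjusted p = 0.341). Creatine kinase CKM overlapped by a small margin, at 406, 311 and 252 TPM and then 537, 369 and 558 TPM (0.60, limma adjusted p = 0.281). Of 25 calcium handling genes, 2 lay wholly higher and 5 wholly lower (3 and 3 after scaling), with the lower counts near the 17.9% and 11% of all genes. S100A1, a calcium sensor that binds the release channel, was 6.65, 6.85 and 5.64 TPM and then 14.4, 11.8 and 8.07 TPM (0.72, limma adjusted p = 0.257). PPP1R1A, an inhibitor of protein phosphatase 1, was 38.7, 24.7 and 29.3 TPM and then 14.7, 20.9 and 14.0 TPM (-0.86, limma adjusted p = 0.153). ATP2B4, a calcium pump of the cell membrane, was 18.1 to 19.997 TPM on day 7 and 10.9 to 12.5 TPM on day 15 (-0.66, limma adjusted p = 0.196). The pump ATP2A2, the release channel RYR2 and phospholamban (PLN), which carry most of the calcium cycle of the muscle cell, had overlapping libraries. PLN, for example, was 7602, 11930 and 12244 TPM on day 7 and 6243, 15533 and 12436 TPM on day 15.

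Interferon-stimulated genes had the largest list median and a wide spread within each age. All 37 tested had a fold change above 0, with a median of 1.45, and 24 had an unadjusted limma p under 0.05, against 1.74% of all genes. None rose, and in none were the ages free of overlap (1 after scaling). ISG15, a ubiquitin-like modifier, was 3.89, 47.2 and 4.30 TPM in day 7 replicates 2, 5 and 6 and 20.03, 204 and 119 TPM in day 15 replicates 1, 2 and 6 (2.90 ± 0.87 (SE), limma adjusted p = 0.229). IFI6, an antiviral membrane protein, was 26.0, 245 and 25.4 TPM and then 146, 1148 and 383 TPM (2.84 ± 0.84 (SE), limma adjusted p = 0.223). In both, day 7 replicate 5 stood above day 15 replicate 1. Members share these libraries and moved together in them: the median member's deviation from the mean of the 6 libraries was -1.53, 0.68 and -1.39 on day 7 and -0.57, 1.71 and 0.94 on day 15. Without day 15 replicate 2, the highest library, no gene of the 12268 rose (113 at an unadjusted limma p under 0.05), and the list median was 0.92. Without day 7 replicate 5 the list median was 2.24, 30 genes rose, and 10 of these were among the 37 interferon-stimulated genes. They included RSAD2 (4.47, limma adjusted p = 0.0145) and MX1 (3.62, limma adjusted p = 0.0145), both antiviral effectors, beside 3.01 and 2.38 with all libraries (limma adjusted p = 0.273 and 0.295).

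Antigen presentation genes and macrophage markers had a similar order of libraries. Their medians were 0.36 over 16 genes and 0.21 over 14, with no member free of overlap. B2M, the light chain of class I antigen complexes, was 183, 427 and 221 TPM on day 7 and 261, 1194 and 452 TPM on day 15 (1.01, limma adjusted p = 0.384). The complement gene C1QA, a tissue macrophage marker, was 21.3, 37.3 and 20.1 TPM and then 19.4, 98.7 and 32.2 TPM (0.63, limma adjusted p = 0.580). Without day 15 replicate 2 its fold change was -0.01, so that library carries its direction. Macrophage markers summed to 96.6, 174 and 98.0 TPM on day 7 and 85.8, 363 and 135 TPM on day 15. Lymphocyte markers summed to 13.3, 27.6 and 19.6 TPM and then 12.1, 63.6 and 13.9 TPM over 5 genes, and 1 of 8 neutrophil markers was tested, at under 1 TPM in the 6 libraries. In each of the macrophage and lymphocyte sums the highest library of each age was also the highest for ISG15, and the part of these cells in the interferon values was not tested.

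**Figure D4:**
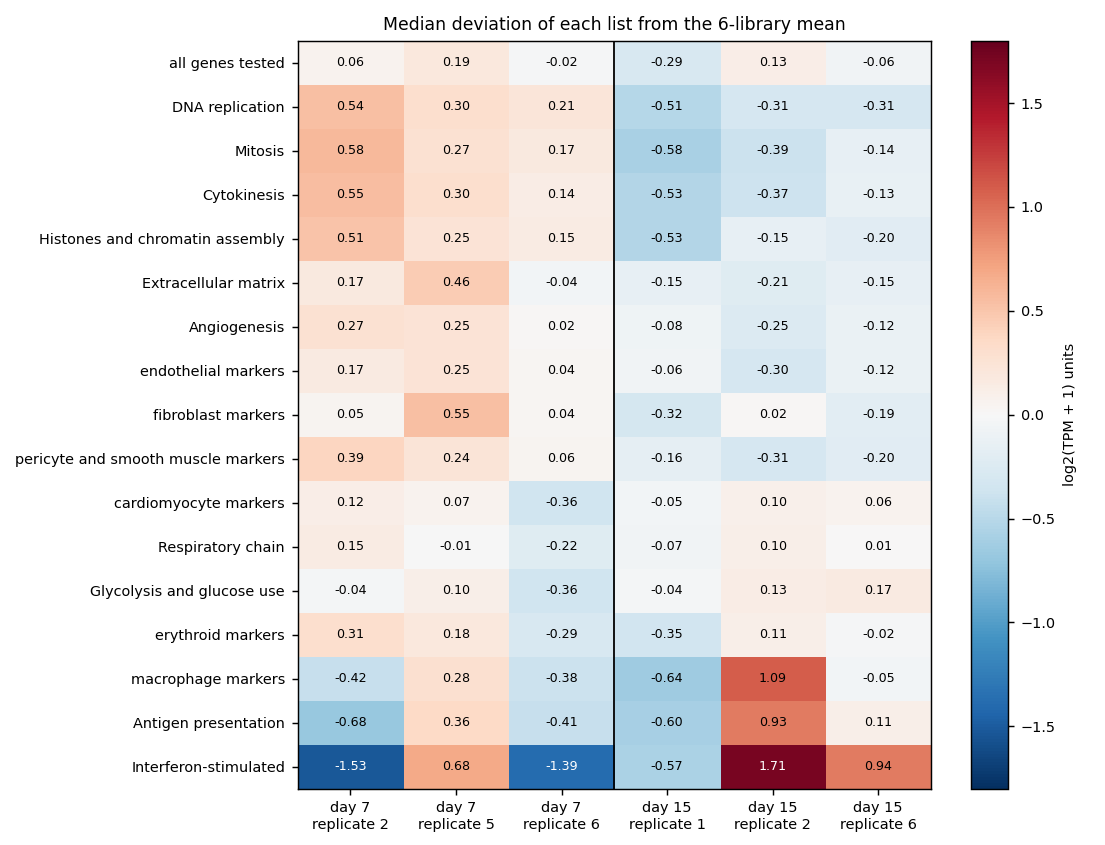
Median deviation of the tested members of 16 lists, and of all genes, from their mean over the 6 libraries, in log2(TPM + 1) units. Red is above and blue below the mean, with the day 7 libraries left of the line and the day 15 libraries right of it. The 4 cell division lists are positive in the day 7 libraries and negative in the day 15 libraries; the interferon list is positive in day 7 replicate 5 and in day 15 replicates 2 and 6.

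Other genes differed more among libraries of an age than between the ages. NPPA, the atrial natriuretic peptide and a marker of cardiac wall stress, was 249.9, 1446 and 37.2 TPM on day 7 and 6.79, 200.4 and 59.8 TPM on day 15 (-2.39 ± 1.26 (SE), limma adjusted p = 0.445). NPPA is also on a list of atrial and conduction markers, of which 5 were tested. Their median deviation from the mean of the 6 libraries was -0.17, 0.51 and -0.53 on day 7 and -0.33, 0.77 and -0.01 on day 15. The part of atrial tissue in the NPPA values was not tested. NPPB, the related B-type peptide, was 129, 259.8 and 2.76 TPM and then 7.34, 74.2 and 1.06 TPM (-2.21 ± 1.46 (SE), limma adjusted p = 0.549). Day 7 replicate 5 was the highest library for both peptides. Their receptor NPR1 varied far less, at 9.51, 10.8 and 12.6 TPM on day 7 and 5.23, 3.82 and 6.29 TPM on day 15 (-0.98 ± 0.21 (SE), limma adjusted p = 0.102), and the clearance receptor NPR3 was higher on day 15 (0.65, limma adjusted p = 0.267). The Y-linked helicase gene DDX3Y was 23.3, 33.3 and 0.126 TPM on day 7 and 0.0730, 31.8 and 27.0 TPM on day 15, so each age held 1 library near 0. EIF1AY, also Y-linked, was 6.69, 8.54 and 0.148 TPM and then 0.151, 11.5 and 10.2 TPM, in the same libraries. The labels give no sex, and the Y-linked genes did not separate day 7 from day 15. DDX3Y was near 0 in the day 0 libraries. ENSSSCG00000035520, which has no symbol, was 0.741, 4074 and 0.664 TPM on day 7 and 3631, 4104 and 3914 TPM on day 15. It was abundant in day 7 replicate 5 and near 0 in the other day 7 libraries, which gave the largest fold change of all 12268 genes, without a call (7.41 ± 2.15 (SE), limma adjusted p = 0.221).

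**Figure D5:**
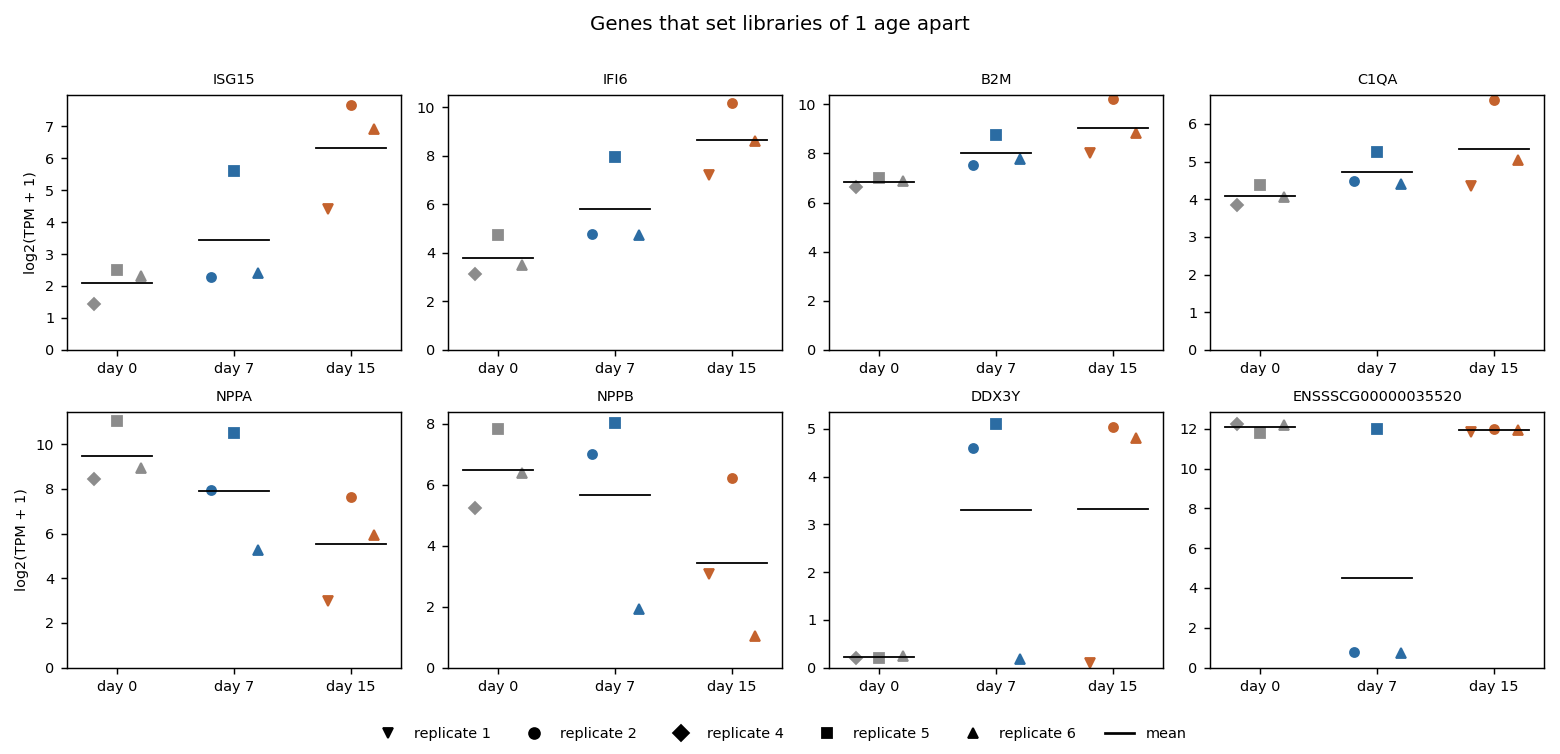
Log2(TPM + 1) of 8 genes whose libraries of an age lie apart, in the libraries of day 0, day 7 and day 15; shapes give the replicate number and bars the mean of the age. ISG15 and IFI6 are high in day 7 replicate 5 and day 15 replicates 2 and 6, and DDX3Y is near 0 in day 7 replicate 6, day 15 replicate 1 and the day 0 libraries.

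Signalling and transcription factor lists differed in their counts. Of 28 cardiac transcription factor genes, TBX4 fell and 7 lay wholly lower (8 after scaling, against 11% of all genes), with a median of -0.27 (-0.12 after scaling). IRX5, which shapes the gradient of potassium currents across the ventricular wall, was 13.7, 15.7 and 8.85 TPM on day 7 and 2.38, 9.09 and 1.55 TPM on day 15, with overlap through day 15 replicate 2 (-1.60, limma adjusted p = 0.232). In the insulin-like growth factor and neuregulin list, 3 of 23 lay wholly lower and 1 wholly higher, against 17.9% and 1.46% of all genes. After scaling these were 0 and 3, against 11% and 8.69%. The ligand IGF1 was 3.11, 4.45 and 6.71 TPM and then 2.995, 1.45 and 2.69 TPM (-0.75, limma adjusted p = 0.325), and the binding protein IGFBP2 was 24.8, 20.1 and 18.1 TPM and then 47.3, 28.7 and 29.6 TPM (0.69, limma adjusted p = 0.232). Of 45 genes of the Hippo, TGF-beta, BMP, WNT and Notch pathways, 9 lay wholly lower (7 after scaling), near the 17.9% of all genes (11% after scaling), among them the mural cell receptor NOTCH3 (-0.63, limma adjusted p = 0.260), which overlapped after scaling. FRZB, a secreted WNT antagonist, was 4.33, 15.6 and 2.89 TPM and then 65.2, 26.4 and 13.2 TPM, with overlap (2.08, limma adjusted p = 0.319). The clock output gene BHLHE41 was 0.480, 0.454 and 0.596 TPM on day 7 and 1.38, 1.42 and 2.03 TPM on day 15 (0.78 ± 0.17 (SE), limma adjusted p = 0.106), while CIART, another clock repressor, was lower (-0.81, limma adjusted p = 0.199) with overlap after scaling. BHLHE41 reached 1 TPM on day 15 alone, and so entered the test only through the age where it is high. All 43 ribosomal protein genes had a fold change below 0 (41 after scaling), with a median of -0.29 (-0.11 after scaling). In either form 6 lay wholly lower, a share (14.0%) near those of all genes (17.9%, and 11% after scaling). RPL3 was the clearest of them, at 98.0, 72.3 and 57.3 TPM and then 44.9, 53.2 and 39.1 TPM (-0.69, limma adjusted p = 0.232). Reads of ribosomal protein genes can be shared with near-identical copies, so these values are less certain.

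Other genes were separate between the ages by 2-fold or more without a call. XDH, xanthine oxidoreductase of purine breakdown, was 8.16, 2.07 and 16.4 TPM on day 7 and 0.334, 1.04 and 0.104 TPM on day 15 (-2.45 ± 0.49 (SE), limma adjusted p = 0.0883). MASP1, a protease of the lectin complement pathway, was 20.2, 17.4 and 22.8 TPM and then 4.74, 11.3 and 5.50 TPM (-1.45 ± 0.27 (SE), limma adjusted p = 0.0727). CISH, a feedback inhibitor of cytokine signalling, was 55.2, 30.2 and 72.6 TPM and then 12.6, 25.6 and 20.4 TPM (-1.35, limma adjusted p = 0.142). On the log2 scale the margin between the ages was the narrowest of these 3 in CISH, and XDH varied widely within each age. KRT8, an epithelial keratin also found in mesothelium, was 19.7, 11.8 and 9.27 TPM and then 3.27, 6.53 and 2.00 TPM (-1.61, limma adjusted p = 0.173). On the higher side, SPP1, the secreted phosphoprotein osteopontin, was 3.71, 7.86 and 4.23 TPM on day 7 and 12.2, 37.6 and 14.2 TPM on day 15 (1.72 ± 0.37 (SE), limma adjusted p = 0.104). Its highest library, day 15 replicate 2, was also the highest for macrophage markers. LIN7B, a scaffold of cell junctions, was 4.21, 5.70 and 2.82 TPM and then 14.6, 11.4 and 10.8 TPM (1.36, limma adjusted p = 0.0905). CITED1, a transcriptional coregulator, was 58.6, 50.1 and 34.9 TPM and then 122, 92.7 and 78.1 TPM (1.02, limma adjusted p = 0.141).

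The second week was also compared with the first. The contrast takes each gene's change from day 7 to day 15 minus its change from day 0 to day 7, so the day 7 libraries enter both steps, and a gene high or low on day 7 alone gets a large value. It passed limma's threshold in 236 genes (1.92%), 188 of them negative (1.53%) and 48 positive (0.391%). Between day 0 and day 7 themselves, 2031 genes (16.6%) had passed, against the 21 of the second week. The Y-linked DDX3Y was near 0 in the day 0 libraries, and the part of sex in the comparisons with day 0 was not tested. Of the 21, 17 passed the contrast, 12 with a negative and 5 with a positive value. Since these genes were chosen on the step from day 7 to day 15, which is part of the contrast, this count and its signs are a description. VASH1 had a value of -3.66 (limma adjusted p = 0.00696), from 1.89, 3.74 and 2.66 TPM on day 0 through the high levels of day 7 to those of day 15. SLC16A3 was the reverse, with 41.1, 36.0 and 51.1 TPM on day 0 and a value of 3.58 (limma adjusted p = 0.00696). The 4 that did not pass were GRIP2, STX6, FBF1 and ENSSSCG00000036669. FBF1, for example, had been at 36.6, 23.8 and 46.9 TPM on day 0, which overlapped with day 7, and its value was -1.07 (limma adjusted p = 0.220).

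Several lists were represented among the 236. Of the 45 DNA replication genes 19 passed, all negative, and of the 46 mitosis genes 11, all negative. PCNA, with 26.4, 33.9 and 25.6 TPM on day 0, had a value of -1.53 (limma adjusted p = 0.0423). Of the 53 matrix genes 6 passed, all negative, and of the 32 amino acid and endoplasmic reticulum stress genes 8 passed, all positive. Among the latter, DDIT3, a stress transcription factor, was 80.9, 38.1 and 86.5 TPM on day 0, 5.20, 7.33 and 4.17 TPM on day 7 and 7.53, 10.4 and 6.47 TPM on day 15. It stayed low through the second week (0.48, limma adjusted p = 0.525), and its contrast of 3.83 (limma adjusted p = 0.0111) came from the earlier step. FABP4 was 212, 293 and 267 TPM on day 0, lowest on day 7 and intermediate on day 15, with a value of 2.91 (limma adjusted p = 0.0144).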

How the data were processed

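Left ventricular tissue was frozen, RNA was isolated with a NucleoSpin RNA kit and libraries followed the TruSeq stranded mRNA protocol, per the labels' protocols. The authors deposited 1 table of TPM values, with 22629 rows and 1 column for each of 9 libraries. Per the submitters' processing notes, the tools included kallisto 0.43.1, HISAT2 2.0.5 and Trimmomatic 0.33. The step each served, the genome build, the annotation and whether counting used strand were not given in the sources used here. Gene symbols name 15095 rows, and Ensembl identifiers 7534, of which 915 matched a table of gene names and 889 received a symbol. TPM hold no depth, so counting intervals are not given.

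Genes with at least 1 TPM in at least 3 libraries were taken to log2(TPM + 1), which understates changes of low genes. This filter also admits genes that reach 1 TPM at a single age, through the age where they are high. Such genes, for example KNTC1 of the mitosis list, are part of the counts of wholly higher or lower members. limma 3.58.1 in R 4.3.3 fitted 1 mean per age to all 9 libraries (mean-variance trend, 6 residual degrees of freedom). Benjamini-Hochberg adjustment ran over all 12268 genes, with a threshold of 0.05. With 3 libraries on each side, the smallest two-sided p of an exact permutation test is 0.1. A single simulated table of 12083 genes was tested for day 15 against day 7. The step called 8.96% of genes changed 1.5-fold, 71.6% changed 2-fold, 98.5% changed 4-fold and 0.0589% of unchanged genes. The changed genes there had a mean of at least 5 TPM, and noise was drawn independently for each gene and library. In the data, genes deviated together within libraries and some of those called had lower means, so these shares need not hold for the data.

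The comparison, the gene lists and the genes fixed by name were chosen with earlier results of these data known, so no list was tested. Lists are described by counts and medians beside those of all genes. Named genes were all that passed, the 12 largest separations per direction (unadjusted p under 0.05, 5 TPM or more on average at the higher age), the 3 smallest p and the most abundant member of each list, the 12 largest spreads within ages, genes fixed by name, and the leading genes of the contrast of the weeks. The text gives a part of them; ENSSSCG00000035520 was added after its values were seen, as were RHOA, RHOC and the septins. Alternatives were pseudocounts of 0.1 and 5 TPM, no filter, a filter at a mean of 5 TPM, 3 rescalings, other limma settings, a fit on 6 libraries, a replicate block and leaving out each library. Overlap counts after scaling were added after the data were seen.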

Additional observations from a re-analysis of the deposited data

Results flagged for a closer look

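Of the 21 genes that changed between day 7 and day 15, 17 differed between the weeks by limma's contrast of the second step minus the first, on log2(TPM + 1). The day 7 libraries are shared by both steps, and the 21 genes were chosen on the second step, so this count and its signs are a description. Negative values were found for VASH1 (-3.66), ENSSSCG00000035617 (-3.10), TBX4 (-3.09), SYT2 (-3.08), CUX2 (-2.54), ENSSSCG00000032319 (-2.37), KLHL3 (-2.34), SLC24A3 (-2.32), CRADD (-2.29), SLCO2B1 (-2.10), ST6GAL1 (-1.98) and SH3TC2 (-1.69). Positive values were found for SLC16A3 (3.58), RXRG (2.85), ENSSSCG00000033302 (2.82), FGF9 (1.8) and FGF23 (1.72).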

How the results depend on the processing

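The number of genes that changed, and the balance of rises and falls, depended on most choices. The directions of the 21 genes held. With the replicate block and without day 7 replicate 5 (30 rose, 22 fell), rises outnumbered falls. Against 21 genes (5 rose, 16 fell, and 236 in the contrast of the weeks), a pseudocount of 0.1 TPM gave 5 (1, 4 and 141), one of 5 TPM 30 (6, 24 and 285), no filter 12 (1, 11 and 44), a mean of at least 5 TPM 1 (0, 1 and 89), median-of-ratios scaling 11 (4, 7 and 594), quantile normalization 10 (4, 6 and 553), rescaling without mitochondrial and the top 20 genes 12 (4, 8 and 650), no trend 23 (5, 18 and 247), a robust fit 31 (5, 26 and 266) and the fit on the 6 libraries 2 (1 and 1), which holds no contrast of the weeks. At an unadjusted p under 0.05, 135 genes were higher with the mean filter, where 0 rose by limma. Library weights gave 3095 (573, 2522 and 1619), but their estimate stopped before it converged, with weights of 0.274 to 32.2, the highest for day 15 replicate 6. With the replicate number as a block, which left 2 residual degrees of freedom, 126 genes passed (91 rose, 35 fell, 13 of the 21 among them) and 28 in the contrast of the weeks. Deviations of libraries with the same number correlated at -0.213 (replicate 2, day 7 and day 15), 0.17 (replicate 6), and 0.00328, 0.0323 and 0.0986 for pairs with day 0. Between day 7 and day 15 libraries of unlike number they ran from -0.335 to 0.372, so they cannot tell whether the numbers pair the samples. The labels do not say that the numbers mark animals or litters, and the main fit used no block. Leaving out 1 library gave 0 to 52 genes (0 to 30 rose, 0 to 41 fell) and 3 to 734 in the contrast of the weeks, with the highest values without day 7 replicate 5 or day 0 replicate 5. Genes free of overlap numbered 179 higher and 2199 lower as deposited and 1066 and 1348 after median-of-ratios scaling. None of the 21 genes reversed in any setting, and each kept its call in 5 (SLCO2B1) to 17 (SLC24A3) of 20 or 21 settings. Of 93 other genes followed, 1 reversed: C1QA, which ran from -0.0137 without day 15 replicate 2 to 1.13 without day 15 replicate 1. Over all settings the list medians ran from -0.90 to -0.43 for DNA replication, -0.85 to -0.39 for mitosis, -0.52 to -0.23 for matrix, 0.07 to 0.32 for glucose use and 0.92 to 2.5 for the interferon list. Read depth is not recorded in TPM, so the precision of genes at a few TPM is unknown.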

Other observations

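A group of genes was low on day 7 and again higher on day 15 without a call for the second week. The histone gene HIST2H2BE was 17.8, 26.2 and 22.8 TPM on day 0, 8.53, 17.5 and 8.77 TPM on day 7 and 27.0, 28.5 and 20.03 TPM on day 15 (1.11 from day 7 to day 15, limma adjusted p = 0.141). CLEC2L, a lectin-like membrane protein, was 3.59, 6.69 and 4.90 TPM on day 0, 0.663, 0.689 and 0.218 TPM on day 7 and 1.19, 2.09 and 1.22 TPM on day 15 (0.71, limma adjusted p = 0.255). In the other direction, the latexin gene LXN, a carboxypeptidase inhibitor, was 5.90, 7.71 and 7.17 TPM on day 0, 29.9, 21.6 and 27.6 TPM on day 7 and 14.2, 4.71 and 11.7 TPM on day 15 (-1.39, limma adjusted p = 0.106). In LXN, day 15 replicate 2 was the lowest of its age, as it was for VASH1 and COL15A1.

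On day 0, ENSSSCG00000035520 was 4899, 3576 and 4685 TPM, so the 2 day 7 libraries near 0 stand apart from the other 7 libraries. KCNE5, a potassium channel subunit, was 0.223, 24.2 and 0.409 TPM on day 0 and 17.1, 10.1 and 5.64 TPM on day 7, and 1.42, 2.21 and 2.18 TPM on day 15 (-1.92, limma adjusted p = 0.388).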
